A study of Mus musculus with 6 samples.

Results

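Interferon-stimulated genes were followed in leukemia-initiating cells (LICs) of a mouse acute myeloid leukemia, as a list of 49 genes that type I or type II interferon is known to induce in many cell types. The list was taken by gene symbol from the deposited table of 27179 genes, and a member was kept for testing when its mean over the 6 libraries reached 0.5 RPKM (the reads of a gene scaled by its exon length and by the library size). By that rule 41 of the 49 members were kept, among 12983 genes of the whole table that reached the same level.

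The libraries came from YFP+Mac-1+c-Kit+ LICs sorted from bone marrow, in which MLL-AF9, a fusion oncogene carried with YFP by a retrovirus, drives the leukemia. Per the study's methods, the virus was put into lineage-negative fetal liver cells that were transplanted into lethally irradiated C57BL/6 recipients, so the leukemia is a donor graft driven from a viral promoter in a host whose own marrow was ablated. The labels give strain C57BL/6 and an age of 8 weeks for all, and the groups differ by donor genotype, with 3 libraries labelled Asic3-/- or Asic3-null (the gene of an acid-sensing ion channel knocked out) and 3 labelled WT. No further agent or time point separates the groups. Nothing in the labels ties each library to a separate animal, so the p values below measure the spread between these libraries, which may be technical.

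Interferons are secreted proteins that cells release when they sense viral or self nucleic acid. Type I interferon binds IFNAR1 and IFNAR2 and, through JAK1 and TYK2, assembles a complex with STAT2 and IRF9 that binds the interferon-stimulated response element (ISRE). Type II interferon binds IFNGR1 and IFNGR2 and acts at gamma-activated sites (GAS). The induced proteins degrade viral RNA, deplete nucleotides, block budding, tag proteins with ISG15 and raise antigen processing, and in blood progenitors a low level of several of them is known without infection.

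The promoters of the list are shown first because ISRE and GAS are the elements through which interferon is known to act. RefSeq for GRCm38.p6 gave a window from 250 bases before to 50 bases after the start site for 39 of the 49 members. No window was available for Dhx58, Ifi27l2a, Mx1, Mx2, Oas2, Parp14, Parp9, Rtp4, Usp18 and Zbp1, and these were not searched. The ISRE core was searched on both strands as GAAA, any 2 bases and GAAA again, where overlapping matches were each counted, and 19 of the 39 members (48.7%) held it, against 3.99% of the 27025 genes with a window and 3.8% of the 9456 of them that reached 0.5 RPKM here. The GAS motif TTCNNNGAA, a palindrome, was found in 12 of the 39 members (30.8%) against 9.55% of all genes with a window. The stretches below are printed 5′ to 3′ on the gene's own strand with each ISRE core in capitals, for members that stayed at or near 0 reads (Ifit1, Ifit3, Rsad2), members with few reads (Isg15, Oas3), the highest member of 2 roles (Bst2, Gbp3) and Igtp, at a mean of 4.88 RPKM. An ISRE core read on the opposite strand appears as its reverse complement. The windows lie at chr4:156200855-156200916 (minus strand) for Isg15, chr19:34640765-34640833 (plus) for Ifit1, chr19:34583353-34583436 (plus) for Ifit3, chr12:26456543-26456592 (minus) for Rsad2, chr5:120777705-120777754 (minus) for Oas3, chr8:71537567-71537622 (minus) for Bst2, chr3:142559979-142560034 (plus) for Gbp3 and chr11:58199502-58199551 (plus) for Igtp. All of them lie upstream of the RefSeq start site used for the window. The stretch of Ifit3 nevertheless lies within the span listed for the gene, and that of Gbp3 reaches into the span listed for Gbp3.
Isg15: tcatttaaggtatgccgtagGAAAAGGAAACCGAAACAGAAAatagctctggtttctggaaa
Ifit1: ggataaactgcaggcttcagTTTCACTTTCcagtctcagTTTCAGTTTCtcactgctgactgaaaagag
Ifit3: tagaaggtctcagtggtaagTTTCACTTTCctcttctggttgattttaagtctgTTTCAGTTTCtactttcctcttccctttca
Rsad2: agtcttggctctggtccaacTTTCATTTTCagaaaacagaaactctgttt
Oas3: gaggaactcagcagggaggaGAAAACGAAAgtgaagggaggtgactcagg
Bst2: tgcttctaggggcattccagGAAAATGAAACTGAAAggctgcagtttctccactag
Gbp3: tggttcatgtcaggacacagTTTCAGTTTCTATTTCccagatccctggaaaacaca
Igtp: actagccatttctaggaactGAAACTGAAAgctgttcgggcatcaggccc

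The stretch of Isg15 runs from -98 to -37 relative to the start site and holds 3 overlapping cores in a row, while that of Ifit1 runs from -124 to -56 and holds 2 that are apart. Of the members called below, Mx1 and Zbp1 had no window. Samhd1, the member with the smallest adjusted p below, had no match to the ISRE core in its window. Its 250 bases before the start site (chr2:157135097-157135346, minus strand) are shown for comparison, with the single GAS match in capitals.
Samhd1: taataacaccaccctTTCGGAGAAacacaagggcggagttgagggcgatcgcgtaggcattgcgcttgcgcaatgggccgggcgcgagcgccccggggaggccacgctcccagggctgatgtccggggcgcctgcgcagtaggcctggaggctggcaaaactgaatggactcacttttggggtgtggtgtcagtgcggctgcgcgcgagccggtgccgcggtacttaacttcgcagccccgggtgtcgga

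A match of this kind describes the letters in the window and says nothing of whether a factor was bound in these cells. Of the 34 kept members with a window, 16 (47.1%) held the ISRE core, and of the 5 members under 0.5 RPKM with a window, 3 held it.

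Several facts of the libraries bear on all results below. RPKM values corresponded to whole reads, from which library sizes of 1947168 to 2381861 reads were recovered, and a single read on a 2 kb gene amounted to 0.21 to 0.257 RPKM. Asic3 itself ran against the labels, with 9.12, 4.11 and 6.58 RPKM in the Asic3-null-labelled libraries and 1.22, 1.85 and 0.435 RPKM in those labelled WT, and for that reason groups are named by their labels throughout. Every direction below is between these labels and would turn if the labels were exchanged. Xist lay at 46.5 to 71.9 RPKM in the Asic3-null-labelled libraries and at 0.0236 to 0.0573 RPKM in those labelled WT, and 4 Y-linked genes summed to 0 and to 81.4 to 118.2 RPKM, so genotype label and sex cannot be told apart. The sort markers were present in all libraries, with Kit at 14.4, 17.9 and 20.4 RPKM (labelled Asic3-null) against 9.09, 15.3 and 8.97 (labelled WT), and Itgam, which encodes the Mac-1 chain, at 12.9, 12.3 and 16.9 against 89.5, 85.7 and 55.1 RPKM. Among the WT-labelled libraries, replicate 2 stood apart for the list, since it had the highest value of the 6 libraries for 23 of the 41 kept members, against 2 to 6 members for each other library. Replicate 2 labelled WT also had the fewest reads (1947168), so a single read on a 2 kb gene gave the most RPKM there (0.257). The same count over all tested genes is not given here, so whether it is a trait of the list was not tested.

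The list as a whole was expressed at a low level. The mean RPKM of the kept members ran from 0.62 to 228 with a median of 5.62, against 12.7 for all tested genes, and 18 of the 41 lay in the lowest quartile of tested genes. Only Psme1, a subunit of the proteasome activator, exceeded a mean of 100 RPKM. The 8 members under 0.5 RPKM include several of the genes most used to read an interferon response. Ifit3 and Ifi44 had no read in any library, which allows up to 3 reads in each, by counting error only. Ifit1, an inhibitor of the translation of foreign RNA, had 1 read in all 6 libraries together, as did Rtp4, and in each case it lay in replicate 2 labelled WT. Rsad2, the gene of viperin, had 0, 0 and 3 reads in the Asic3-null-labelled libraries against 0, 1 and 3 in the WT-labelled ones. Usp18, which removes ISG15 from proteins, had 0, 0 and 1 reads against 0, 2 and 0. Oasl2 had 1, 1 and 5 reads against 0, 4 and 0, and Mx2 had 1, 0 and 1 against 1, 2 and 4. No fold change is given for these 8, and the mean of Mx2 (0.28 RPKM) was the nearest below the limit, as that of Ddx58 (0.62 RPKM) was the nearest above it.

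**Figure D1:**
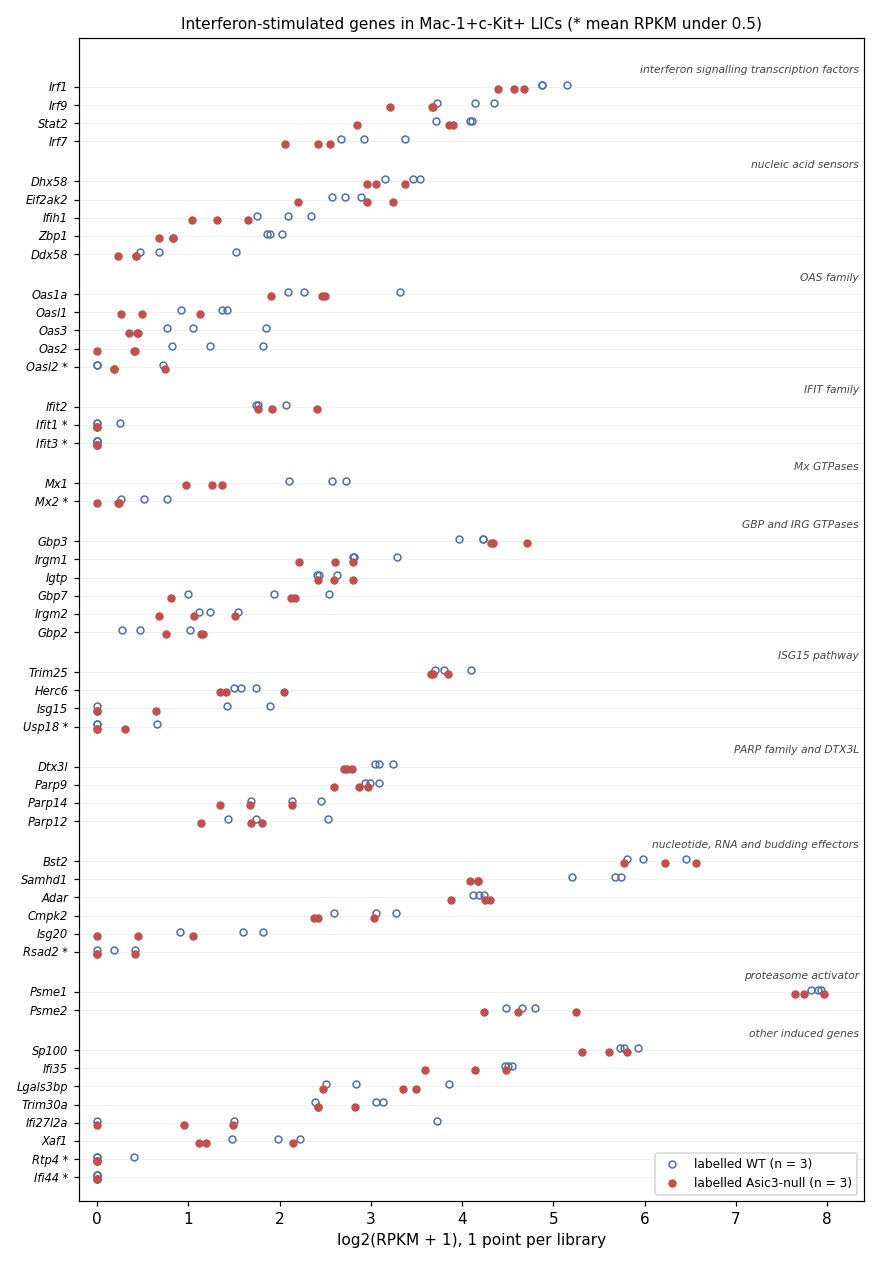
Level of the 49 members as log2(RPKM + 1), with 1 point per library (open, labelled WT, n = 3; filled, labelled Asic3-null, n = 3), grouped by role. Members marked with an asterisk had a mean under 0.5 RPKM, and the rightmost is Psme1 at a mean of 228 RPKM.

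The comparison of the groups asks which members differ between LICs labelled Asic3-null and labelled WT. Samhd1, Mx1 and Zbp1 were lower in the Asic3-null-labelled libraries, at 0.26 to 0.36 times their mean RPKM in the WT-labelled libraries, and no member was called higher. The test was limma's moderated test on log2(RPKM + 1) over all 12983 genes, called at an adjusted p under 0.05. The 3 called members are 7.32% of the 41, and 2.66% of all tested genes were called lower. Among all tested genes 0.547% were called higher. At an unadjusted p under 0.05, limma gave 10 members lower (24.4%, background 9.3%) and 0 higher (background 6.28%), and limma-voom on the recovered reads also gave 0 higher at either threshold. The groups did not overlap, with the Asic3-null-labelled libraries lower, for 11 members (26.8%, background 11.4%), and with them higher for 1 member, Gbp3 (2.44%, background 10.8%). Of the 41 members, 5 (Ddx58, Oas2, Oas3, Isg15, Isg20) had a mean under 0.5 RPKM in the Asic3-null-labelled libraries and passed the filter through the WT-labelled ones, 3 of them among the 11, so these counts and medians are a description of the members that passed. The log2 fold change lay below 0 for 32 of the 41 (78.0%) against 46.4% of all tested genes, and its median was -0.36 against 0.03. In bulk RNA, fewer cells of a type and less RNA per cell cannot be told apart. Without replicate 2 labelled WT the median of the members was -0.18, with 27 of the 39 then tested below 0, and without replicate 3 labelled WT it was -0.50.

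**Figure D2:**
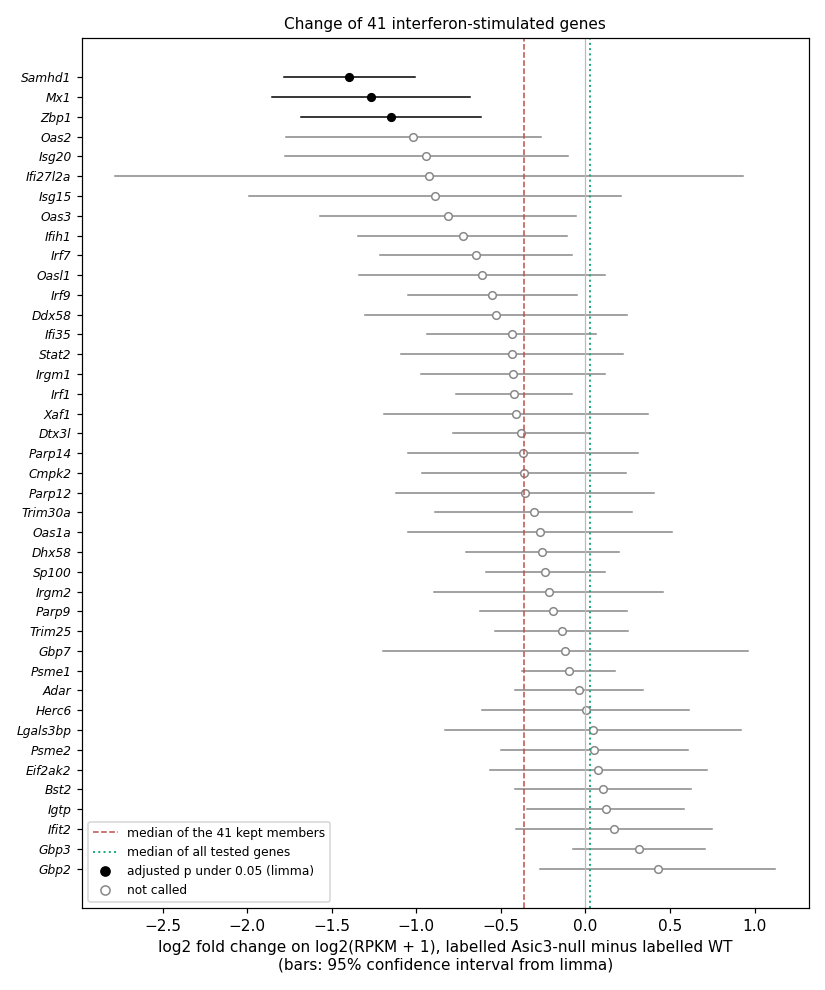
Log2 fold change on log2(RPKM + 1) of the 41 kept members, labelled Asic3-null minus labelled WT, with the 95% confidence interval from limma. The 3 called members (filled) have the lowest values, and the dashed line at the members' median of -0.36 lies left of the dotted line at the median of all tested genes, 0.03.

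Samhd1 encodes a hydrolase that breaks down deoxynucleotides and limits reverse transcription. It lies on chromosome 2 (157097534 to 157135096, minus strand, GRCm38). It stood at 15.9, 17.1 and 17.1 RPKM in the Asic3-null-labelled libraries and at 52.5, 50.2 and 35.8 RPKM in those labelled WT, from 148, 163 and 161 reads against 443, 392 and 340. Every WT-labelled library was at more than 35 RPKM and every Asic3-null-labelled library was under 18 RPKM. Group means were 16.7 ± 0.66 RPKM for the Asic3-null label and 46.2 ± 9.06 RPKM for the WT label (SD, n = 3 each). The log2 fold change was -1.40 (SE 0.17, limma adjusted p = 0.00346). An exact permutation test of the RPKM values gave a two-sided p of 0.10, which with 3 libraries a group is the lower limit. It was called in all 14 alternatives, and among the kept members it alone was.

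Mx1 and Zbp1 rested on far fewer reads. Mx1, a dynamin-like GTPase that blocks influenza virus and whose C57BL/6 allele is known to lack function, lies on chromosome 16 (97447035 to 97462906). It had 0.961, 1.40 and 1.58 RPKM in the Asic3-null-labelled libraries and 5.64, 4.95 and 3.29 RPKM in those labelled WT, from 6, 9 and 10 reads against 32, 26 and 21. The mean of the WT-labelled libraries was 3.52 times that of the others, with no overlap. The log2 fold change was -1.27 (SE 0.26, limma adjusted p = 0.0355), and the call was lost in 7 of 14 alternatives, among them the removal of any library but replicate 3 labelled WT, where the adjusted p reached 0.127, while its size ranged from -1.73 to -1.14 over the alternatives. Zbp1, a sensor of left-handed nucleic acid that starts necroptosis, lies on chromosome 2 (173206612 to 173218959). It had 0.599, 0.777 and 0.788 RPKM against 2.64, 3.09 and 2.74 RPKM, from 3, 4 and 4 reads against 12, 13 and 14. The values within each group were close and the mean labelled WT was 3.91 times the other. The log2 fold change was -1.15 (SE 0.23, limma adjusted p = 0.0352), and the call was lost in 8 of 14 alternatives, among them each removal of 1 library, where the adjusted p reached 0.124, while its size ranged from -1.84 to -1.04 over the alternatives. The exact permutation p was 0.10 for each.

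**Figure D3:**
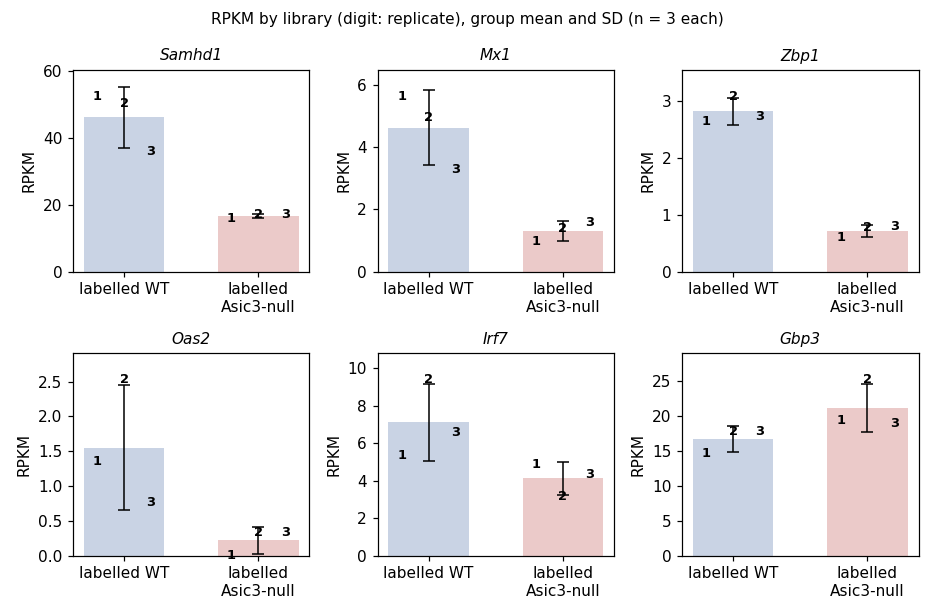
RPKM of 6 members in each library (digits give the replicate number), with group mean as a bar and SD as a line (n = 3 each). For Samhd1, Mx1 and Zbp1 all WT-labelled libraries lie above all those labelled Asic3-null, for Oas2 and Irf7 replicate 2 labelled WT is the highest, and for Gbp3 the order of the groups is the opposite.

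The transcription factors of the interferon response were lower in the mean of the Asic3-null-labelled libraries for all 4 members, and none was called (lowest limma adjusted p 0.227). Irf1, which interferon gamma induces, was the highest of the 4 in RPKM, at 24.7, 19.99 and 22.7 against 28.4, 34.4 and 28.4. Its groups did not overlap, with a log2 fold change of -0.42 (95% interval -0.77 to -0.08, limma adjusted p = 0.227). Irf7, the factor that amplifies type I interferon production, had 4.88, 3.16 and 4.35 RPKM against 5.37, 9.39 and 6.59, without overlap and with replicate 2 labelled WT at the top (log2 fold change -0.65, limma adjusted p = 0.257). Irf9, the DNA-binding part of the ISRE complex, had 11.7, 8.28 and 11.9 RPKM against 19.5, 16.6 and 12.3. Its groups were separated only by the gap between 11.9 and 12.3 RPKM (log2 fold change -0.55, limma adjusted p = 0.274). Stat2 overlapped between the groups.

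Among the 5 sensors of foreign or self nucleic acid, Zbp1 was called and 4 of the 5 had a log2 fold change below 0. Ifih1 (MDA5), a sensor of long double-stranded RNA, had 1.49, 1.07 and 2.16 RPKM in the Asic3-null-labelled libraries against 3.27, 4.09 and 2.37 RPKM. The groups did not overlap, and the log2 fold change was -0.73 (95% interval -1.34 to -0.11, limma adjusted p = 0.244). Ddx58 (RIG-I), the sensor of 5′ triphosphate RNA, had 4, 2 and 4 reads against 4, 18 and 7, or 0.349, 0.170 and 0.345 RPKM against 0.385, 1.87 and 0.598, which do not overlap in RPKM although the reads tie at 4. Most reads of the WT-labelled libraries came from replicate 2 (log2 fold change -0.53, limma adjusted p = 0.499), and without that library its mean fell under 0.5 RPKM. Dhx58 (LGP2), a helper of both, was the highest of the sensors at 7.34, 6.79 and 9.36 against 10.1, 10.6 and 7.88 RPKM, which overlap (limma adjusted p = 0.582). Eif2ak2 (PKR), which halts translation on double-stranded RNA, had a log2 fold change of 0.08 (95% interval -0.56 to 0.72), and its span overlaps the gene Gm6548, at 99 RPKM, so reads of the pair cannot be assigned with certainty.

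The OAS family makes the second messenger that activates RNase L, and all 4 members tested had a log2 fold change below 0 with none called. Oas2 and Oas3 passed the filter only through the WT-labelled libraries, which favours a value below 0. Oasl2 was under the filter and not tested, with 7 reads in the Asic3-null-labelled libraries together and 4 in those labelled WT. Oas2 had 0, 3 and 3 reads in the Asic3-null-labelled libraries and 11, 19 and 7 in those labelled WT, or 0, 0.326 and 0.331 RPKM against 1.35, 2.53 and 0.765. The groups did not overlap (log2 fold change -1.02, 95% interval -1.77 to -0.26, limma adjusted p = 0.181), and without replicate 2 labelled WT the value was -0.75. Oas3 had 3, 4 and 4 reads against 7, 24 and 12, again without overlap and with replicate 2 labelled WT the highest (log2 fold change -0.81, limma adjusted p = 0.287), and -0.50 without that library. Oasl1 had 2, 6 and 1 reads against 4, 7 and 8, which overlap (log2 fold change -0.61, limma adjusted p = 0.398). Oas1a, the highest of the family at 2.74, 4.67 and 4.51 against 3.27, 8.97 and 3.80 RPKM, overlapped, and its log2 fold change of -0.27 became 0.11 without replicate 2 labelled WT. These genes lie on chromosome 5, with Oas2, Oas3 and Oas1a close together and Oasl1 farther away, and they resemble each other. How reads shared between such copies were counted is not given in the sources used here, so the split between them is uncertain. The same holds for the IFIT, Mx, GBP and Trim30 families.

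Of the IFIT family, whose proteins bind viral RNA ends, only Ifit2 was tested. It had 2.41, 2.76 and 4.31 RPKM against 2.41, 2.34 and 3.21, which overlap (log2 fold change 0.17, limma adjusted p = 0.798). Ifit2 thus gave 156 reads over the 6 libraries, while its neighbours Ifit1 and Ifit3, both with a pair of ISRE cores in the stretches above, gave 1 and 0.

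The GTPases of the GBP and IRG families, which attack the vacuoles of intracellular pathogens and are mostly induced by interferon gamma, did not share a direction. Of the 6 tested, 3 had a log2 fold change below 0, and the median was 0.00. Gbp3 was the highest at 19.3, 25.1 and 18.9 RPKM in the Asic3-null-labelled libraries against 14.6, 17.7 and 17.8 RPKM in those labelled WT. All 3 Asic3-null-labelled libraries lay above those labelled WT, with a log2 fold change of 0.32 (95% interval -0.07 to 0.70, limma adjusted p = 0.417), and of 0.19 without replicate 2 labelled Asic3-null. Gbp2, Gbp7, Igtp, Irgm1 and Irgm2 overlapped between the groups, with log2 fold changes of -0.43 (Irgm1) to 0.43 (Gbp2). The promoter windows of all 6 held the ISRE core.

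ISG15 is a ubiquitin-like protein, and Herc6 and Trim25 are ligases tied to it. Isg15 itself was nearly silent, with 0, 0 and 1 reads in the Asic3-null-labelled libraries and 0, 4 and 3 in those labelled WT. The groups overlap at 0, and the fitted log2 fold change of -0.89 (limma adjusted p = 0.417) depends on the pseudocount. It was -1.44 without replicate 1 labelled WT, and without replicate 2 labelled WT the gene fell under the filter. Trim25, which also ubiquitinates RIG-I, had 13.4, 11.6 and 11.9 against 12.9, 16.2 and 12.1 RPKM (log2 fold change -0.14, limma adjusted p = 0.747). Its value was -0.02 without replicate 2 labelled WT and -0.22 without replicate 3 labelled WT. Herc6 had a log2 fold change of 0.00 (95% interval -0.61 to 0.61). The ADP-ribosyl transferases Parp9, Parp12 and Parp14 and the ubiquitin ligase Dtx3l, the partner of PARP9, all had log2 fold changes below 0, from -0.38 to -0.19, and none was called. Dtx3l had 5.92, 5.67 and 5.51 RPKM against 8.44, 7.24 and 7.501, without overlap (log2 fold change -0.38, 95% interval -0.79 to 0.03, limma adjusted p = 0.349). Dtx3l and Parp9 overlap at their ends on opposite strands, and the kit does not mark strand, so reads in the shared part cannot be assigned.

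Among the remaining effectors no member besides Samhd1 was called. Bst2 (tetherin), which holds budding virions at the membrane, had 73.6, 93.4 and 53.7 RPKM against 62.5, 86.8 and 54.9, an overlap over nearly the whole range (log2 fold change 0.10, 95% interval -0.42 to 0.62, limma adjusted p = 0.872). Adar, the RNA editing enzyme, had a log2 fold change of -0.04 (95% interval -0.42 to 0.34), and its span overlaps Chrnb2. Isg20, an exonuclease, had 0, 3 and 1 reads against 5, 2 and 7, which overlap (log2 fold change -0.94, limma adjusted p = 0.266), and without replicate 2 labelled WT the value was -1.21. Cmpk2, a mitochondrial nucleotide kinase next to Rsad2 on chromosome 12, had 259 reads where Rsad2 had 7, and its log2 fold change was -0.36 with overlap.

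Neither subunit of the proteasome activator was called. Psme1 had 213.5, 249.7 and 199.2 RPKM in the Asic3-null-labelled libraries against 238.5, 225.0 and 243.0 RPKM (log2 fold change -0.10, 95% interval -0.37 to 0.18, limma adjusted p = 0.747). Its value was -0.19 without replicate 2 labelled Asic3-null and -0.03 without replicate 3 labelled Asic3-null. Its partner Psme2 had a log2 fold change of 0.05 (95% interval -0.50 to 0.61). The span of Psme1 overlaps Emc9, at 11 RPKM. Irf9, the neighbour of both on chromosome 14, is given above. Of the other induced genes, Sp100, a nuclear body protein, was the highest, at 54.8, 38.7 and 47.8 RPKM against 53.8, 60.0 and 52.1 (log2 fold change -0.24, limma adjusted p = 0.502, and -0.11 without replicate 2 labelled Asic3-null). Ifi27l2a had 1, 2 and 0 reads against 0, 11 and 2, so 11 of its 16 reads came from replicate 2 labelled WT. Its log2 fold change was -0.93 (95% interval -2.78 to 0.93, limma adjusted p = 0.629), turned to 0.07 without that library, and its span overlaps Ifi27, so its reads are uncertain. Ifi35, Xaf1, Trim30a and Lgals3bp overlapped between the groups, with log2 fold changes of -0.44 to 0.04.

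The genes that make and carry the interferon signal were taken from a list of 70, of which 47 were tested, 1 was called lower and 0 higher by limma, where 2.66% of all tested genes were called lower and 0.547% higher. Of the 47, 30 had a log2 fold change below 0 and their median was -0.13, while 46.4% of all tested genes were below 0 with a median of 0.03. All 21 interferon ligand genes were listed at 0 in every library. The type I receptor was present, with Ifnar1 at 17.7, 13.8 and 15.8 RPKM against 17.4, 14.1 and 17.3 (log2 fold change -0.05, limma adjusted p = 0.926) and Ifnar2 at 62.7, 52.9 and 62.1 against 68.0, 69.1 and 69.4 (log2 fold change -0.22, limma adjusted p = 0.435). Both chains of the interferon gamma receptor were expressed and neither was called. Ifngr1 had 307, 271 and 270 RPKM against 266, 285 and 272, which overlap (log2 fold change 0.04, limma adjusted p = 0.897). Ifngr2 had 24.2, 19.5 and 23.0 RPKM against 39.5, 32.5 and 30.8, without overlap (log2 fold change -0.60, 95% interval -0.96 to -0.24, limma adjusted p = 0.0925).

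All 5 JAK-STAT genes listed had a log2 fold change below 0 and none was called. Tyk2, the kinase of the type I receptor, had 23.4, 19.3 and 20.4 RPKM against 29.5, 29.5 and 25.05, without overlap (log2 fold change -0.40, limma adjusted p = 0.242), while Jak1 overlapped (log2 fold change -0.12, limma adjusted p = 0.760). The value of Jak1 was -0.0009 without replicate 2 labelled Asic3-null and -0.20 without replicate 1 labelled Asic3-null. The called gene was Tlr9, the endosomal receptor of unmethylated DNA, at 1.24, 0.605 and 1.10 RPKM against 3.70, 3.40 and 3.16 RPKM (log2 fold change -1.17, SE 0.25, limma adjusted p = 0.0397). It was called in 5 of 14 alternatives and lost in the others, each removal of 1 library among them. Of the 11 genes of antigen presentation and the immunoproteasome, 2 were below 0, with a median log2 fold change of 0.14 and none called by limma. Besides Tlr9, 6 genes of the pathway lists with a limma adjusted p between the threshold and that of Ifngr2 were named after their values were seen. Lower without overlap and not called were Tlr7, an endosomal RNA receptor (log2 fold change -1.105, limma adjusted p = 0.0582), Socs3, an inhibitor of cytokine signalling (-1.55, 0.0648), Irf5, a factor downstream of these receptors (-0.90, 0.0881), Trex1, a DNA exonuclease (-0.62, 0.0897), and the kinase gene Ikbke (-1.19, 0.0921). Nlrc5, the transactivator of MHC class I genes, had 5.72, 5.98 and 5.21 RPKM against 3.01, 2.51 and 2.55, without overlap and higher in the Asic3-null-labelled libraries, and was not called either (log2 fold change 0.85, limma adjusted p = 0.0629). Socs3 had 3.16, 3.84 and 3.74 RPKM in the Asic3-null-labelled libraries against 21.8, 6.20 and 13.6 in those labelled WT. Ikbke had 13.9, 11.7 and 12.2 RPKM against 53.5, 21.8 and 22.7, and both were highest in replicate 1 labelled WT. Tlr7 rested on 13 reads in all against 53. With limma-voom, Tlr7 (adjusted p = 0.0187), Irf5 (0.0298), Ikbke (0.0375) and Socs3 (0.0380) were called lower and Nlrc5 (0.0112) higher. Quantile normalization called Nlrc5, and the fit without the intensity trend called Tlr7 and Nlrc5. Without the filter Tlr7 was called, and with the replicate block Irf5. Irf5 was also called without replicate 1 labelled Asic3-null, and Socs3 without replicate 2 labelled WT. Without replicate 3 labelled WT the call was Ifi204, another gene of the pathway lists.

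Transcripts of other myeloid stages moved with the groups. The 12 neutrophil markers summed to 220 to 358 RPKM in the Asic3-null-labelled libraries and to 3834 to 4284 RPKM in those labelled WT, and limma called 10 of the 11 tested lower, none higher (all tested genes, 2.66% lower and 0.547% higher). The 12 monocyte and macrophage markers summed to 1153 to 1355 against 1611 to 1742 RPKM, with 4 of 8 tested called lower. Ly6c2 alone gave 963 to 1371 RPKM of these sums and was not called (log2 fold change -0.34, limma adjusted p = 0.185), and the called Csf1r, Ccr2, Cd14 and Adgre1 had log2 fold changes of -1.50 to -1.36. Their part in the lower values of Samhd1, Mx1, Zbp1 and the members not called was not tested. The 9 matched markers of plasmacytoid dendritic cells, known as strong interferon producers, summed to 51.4 to 75.4 against 42.6 to 61.9 RPKM, most of it from Tcf4 (28.7 to 57.9 RPKM over the 6 libraries, overlapping), with Ly6d at 0 in all libraries. Of this list limma called 1 of 3 tested higher, Cox6a2 (log2 fold change 1.51), a call lost with limma-voom (1.89, adjusted p = 0.131). Siglech and Spib lay lower and Pacsin1 higher without overlap, on 7, 17 and 23 reads in all, and were not tested for lack of level. T cell markers summed to 0.909 to 2.12 against 0.974 to 1.26 RPKM with Cd3e and Themis at 0, B cell markers to 37.4 to 47.8 against 43.6 to 50.5 RPKM with Ms4a1 at 0, and 5 of 6 NK cell markers were at 0 throughout. Conventional dendritic cell markers summed to under 1 RPKM in every library with Cd209a at 0, and the 8 matched erythroid markers to 0.972 to 2.41 against 3.07 to 10.8 RPKM with Slc4a1 at 0.

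Across libraries, the mean log2(RPKM + 1) of the 41 kept members was 2.51, 2.52 and 2.63 for the Asic3-null label against 2.83, 3.18 and 2.79 for the WT label. The same mean over all tested genes lay between 3.70 and 3.81 in the 6 libraries, and in replicate 2 labelled WT it was 3.74. The neutrophil sum of that library was 4284 RPKM, and those of the other WT-labelled libraries were 4044 and 3834 RPKM. The part of either in the member values of replicate 2 was not tested.

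**Figure D4:**
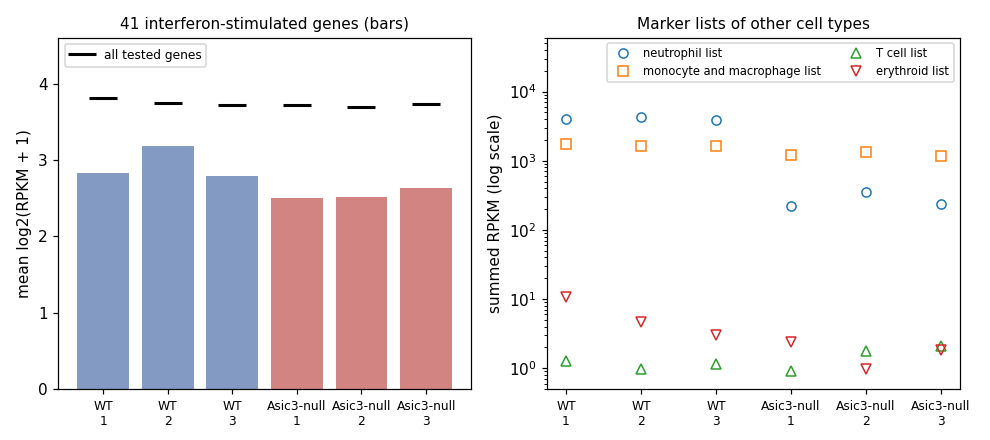
Left, mean log2(RPKM + 1) per library of the 41 kept members (bars) and of all tested genes (dashes). Right, summed RPKM of marker lists per library on a log axis, where the neutrophil list separates the groups (220 to 358 against 3834 to 4284 RPKM) and the bars on the left are highest in replicate 2 labelled WT.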

How the data were processed

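RNA from sorted YFP+Mac-1+c-Kit+ LICs was sequenced from unstranded libraries, and groups and replicate numbers follow the labels. Per the labels, the authors used CASAVA 1.8.2 and TopHat2 2.0.12 with GRCm38, and they deposited 1 table of RPKM values by Entrez gene number. The counting tool, the annotation and the reads taken as library size are not given in the sources used here. For all 16825 genes with a value above 0, the RPKM corresponded to a whole number of reads to within 0.0001, and from these the read numbers and library sizes were taken. They are inferred and not stated by the authors, and counts from them carry counting error only, with no molecular identifiers. RefSeq for GRCm38.p6 gave symbols for 25275 of the 27179 genes, positions and promoter windows.

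Genes with a mean of at least 0.5 RPKM were tested on a scale of log2(RPKM + 1) by limma (version 3.58.1, R 4.3.3), using moderated variances that follow the intensity trend and a model with the group alone. Adjusted p values (Benjamini-Hochberg) under 0.05 were called. The fold change on this scale understates the change of low genes. The exact permutation test was run on RPKM. The step was tested on simulated data. The members and lists were chosen with earlier results of these data known. Named genes are the called members, the 10 largest changes not called, the highest member of each role, called pathway genes, and Ifnar1, Ifnar2, Ifngr1, Ifngr2, Jak1, Tyk2 and the check genes. Some results are not reported here. Members outside that rule were given by ranges or chosen after their values were seen. Alternatives were a pseudocount of 0.1, a filter at 1 RPKM or none, quantile normalization, median-ratio scaling, a fit without the trend, a replicate block, removal of each library in turn and limma-voom on the recovered reads.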

Additional observations from a re-analysis of the deposited data

How the results depend on the processing

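Of the 31 named genes, 25 kept the sign of their log2 fold change in every alternative that could be fitted (14 at most), and no member was called higher in any. Samhd1 was called in all 14, with an adjusted p of 0.00053 to 0.0204. The count of members called lower was 3 in the report, and 2 without the filter and with quantile normalization. It was 1 with the replicate block and 1 to 2 with each library left out. The median log2 fold change of the members ranged from -0.50 to -0.18 with each library left out. The count of pathway genes called was 1 in the report and 0 with a pseudocount of 0.1. It was 2 with quantile normalization, 3 without the intensity trend and 6 with limma-voom (Tlr9, Tlr7, Nlrc5, Irf5, Ikbke and Socs3). With each library left out it was 0 to 1. Tlr9 was not called with any library left out, with the replicate block or without the filter. The sign changed for 6 genes, each only with 1 library left out, when the log2 fold change ran from -1.796 to 0.065 for Ifi27l2a, from -0.086 to 0.31 for Bst2, from -0.50 to 0.11 for Oas1a, from -0.021 to 0.30 for Ifit2, from -0.14 to 0.042 for Ifnar1 and from -0.021 to 0.072 for Ifngr1. The cause was not tested. Over all genes, 416 were called, 234 with the replicate block, and 188 to 301 with 1 library left out. Same-numbered libraries did not deviate together (correlations of deviations 0.06, -0.05 and -0.11, with 2 of 6 libraries correlating best with their own number), so the numbers are not taken to pair them. Leaving out a library also leaves fewer samples. Members with few reads (Isg15, Oas2, Oas3, Oasl1, Ddx58) were not tested where their mean fell below the filter, and depth limits members with few reads.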
